A study of Mus musculus with 8 samples.

Results

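The transcripts of 3 products of the colonic epithelium were followed: Muc2 and Tff3, which goblet cells make, and I-FABP (Fabp2), which absorptive enterocytes make. They were taken by name and not by a rule on their values, though earlier results of these data were known. They are 3 of the 68 target genes of a custom NanoString panel. The panel also held 3 reference genes (Gapdh, Gusb and Pgk1), 71 genes in all. Male and female specific pathogen-free C57BL/6 mice, 7 to 10 weeks old, received for 1 week either the control diet or the high salt diet (HSD), which was the control diet with 4% sodium chloride added. By the sample labels, total RNA of whole colon from 10 mice per diet was combined into 4 pools per diet, 2 of each sex. Mice 1, 2 and 3 of a sex formed a pool and mice 4 and 5 another. The study's figure legend for these data gives 4 mice per group instead, and the labels are followed here. The pools are named male 1–3, male 4–5, female 1–3 and female 4–5, and values are listed in this order. The question put to these colons was whether the diet came with a change of gene expression in the tissue. Because the RNA of several mice is averaged in a pool, pools differ less than single mice would, and all p-values below measure the spread between pools only.

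Colonic mucus is a gel that keeps bacteria away from the epithelium. Muc2 is the secreted mucin that builds this gel, and Tff3 is a small trefoil peptide that goblet cells release together with it and that takes part in epithelial repair. I-FABP binds fatty acids in the cytoplasm of absorptive cells and is far more abundant in small intestine than in colon. Muc2 and Tff3 are therefore read as products of one cell type, and I-FABP as the product of another.

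In the mouse genome (GRCm38.p6, RefSeq) Muc2 lies at chr7:141690340-141754691, Tff3 at chr17:31125306-31129611 and Fabp2 at chr3:122895072-122899506. No genome build was named for the panel. The 250 bases that precede the gene start are shown for Muc2 and Fabp2, the pair whose levels ran together over the pools, with every GATAA, the core letters bound by GATA factors of the intestine, in capitals. Tff3 has no promoter entry in the table used.
Muc2 (chr7:141690090-141690339, plus strand): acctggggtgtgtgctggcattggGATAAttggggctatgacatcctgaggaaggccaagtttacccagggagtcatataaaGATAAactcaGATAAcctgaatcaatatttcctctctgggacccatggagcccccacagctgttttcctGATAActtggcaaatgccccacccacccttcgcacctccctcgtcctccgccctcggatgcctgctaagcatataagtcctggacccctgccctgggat
Fabp2 (chr3:122894822-122895071, plus strand): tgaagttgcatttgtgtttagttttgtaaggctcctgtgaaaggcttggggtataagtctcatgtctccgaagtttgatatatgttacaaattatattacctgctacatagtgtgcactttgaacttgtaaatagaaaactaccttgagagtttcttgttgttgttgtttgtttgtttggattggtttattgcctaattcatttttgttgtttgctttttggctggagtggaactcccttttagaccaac
The letters GATAA or, on the other strand, TTATC occurred 4 times before Muc2, all on the forward strand, at 226, 168, 158 and 99 bases before the start. They did not occur before Fabp2 in this window. Of 32851 mouse promoters of the same length 22.6% held them at least once and 0.119% at least 4 times. TATAA, or TTATA on the other strand, occurred 2 times in each of the windows (22.8% of promoters), in Muc2 at 174 and 28 bases and in Fabp2 at 199 and 159 bases before the start. TTTAT or ATAAA, core letters of CDX factors, occurred 2 times before Muc2, where both overlapped a TATAA or a GATAA, and 1 time before Fabp2 (37.3% of promoters). CACCC or GGGTG, core letters of KLF factors, occurred 3 times before Muc2 and was not found before Fabp2 (52.0% of promoters). These letters describe the windows only.

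Values below are normalized counts, that is, barcode counts per RNA scaled by the authors to the 3 reference genes. The counts behind them could be recovered, because in each pool every value above a low floor is a whole multiple of what 1 count is worth. The recovered totals were 13574 to 74270 on the control diet and 26893 to 169300 on HSD, and all 3 members lay above the floor in all 8 pools. Each member rested on at least 149 counts in every pool, so counting error was small beside the spread between pools: I-FABP in the female 1–3 control pool, the least counted, was 574.3 with a 95% Poisson interval of 486 to 674, which covers counting error only. The male 1–3 pools are followed separately. Their control pool had the highest Muc2 and I-FABP of its diet, far from the other 3 on the linear but not on the log2 scale. Their HSD pool had the lowest of its diet but was not far from the others on either scale. Results that rest on these pools are given with and without them.

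Muc2 and Tff3 were among the 4 strongest signals in every pool, reference genes included, and their order depended on the pool. Among the 71 genes Muc2 ranked 1, 2, 4 and 4 in the control pools and ranked 1 in all 4 HSD pools. Tff3 ranked 2, 1, 1 and 1 in the control pools and 2 in every HSD pool. Muc2 was thus ahead of Tff3 in 1 of 4 control pools and in 4 of 4 HSD pools. I-FABP ranked 5, 14, 12 and 17 on the control diet and 6, 5, 5 and 4 on HSD. Each RNA is counted through a probe pair of its own, and probe pairs differ in efficiency, so ranks order signals and not molecules. Comparisons of a gene, or of a ratio of genes, across pools do not depend on this efficiency.

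These genes also took much of the counting itself. Muc2 and Tff3 together held 47.2% to 75.7% of all recovered counts in a pool, with a median of 52.4% on the control diet and 63.9% on HSD. Muc2 alone held 58.8%, 22.9%, 6.45% and 9.10% of the counts in the control pools and 35.0%, 58.5%, 43.4% and 35.1% in the HSD pools. Tff3 held between 12.5% and 42.5%, and I-FABP between 0.705% and 5.66%.

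The level of Muc2, the gel-forming mucin, was 62763, 10865, 3373 and 4074 in the control pools. In the HSD pools it was 21934, 53516, 36237 and 26688. In 3 of 4 control pools Muc2 lay below every HSD pool, while male 1–3 was the highest of all 8, so the diets overlapped. Its mean was 20268 ± 28530 on the control diet and 34594 ± 13947 on HSD (SD, n = 4 pools each). The log2 fold change was 1.73 (standard error 0.816, 95% confidence interval -0.082 to 3.54), a 3.32-fold higher geometric mean on HSD. It did not pass the test: limma's p adjusted over the 68 target genes was 0.628, and the two-sided exact permutation p was 0.171. In whole-colon RNA fewer cells of a type and less RNA per cell cannot be told apart.

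I-FABP, the enterocyte product, had a normalized count of 2873, 358.5, 574.3 and 315.7 in the control pools. On HSD it was 1175, 2835, 3808 and 4297. Again 3 of 4 control pools lay below every HSD pool and the male 1–3 control pool lay within the HSD range. The mean was 1030 ± 1234 on the control diet and 3029 ± 1377 on HSD (SD, n = 4 pools each). The log2 fold change of 2.04 (standard error 0.702, 95% confidence interval 0.49 to 3.60), or 4.13-fold, was the highest of the 68 target genes. Its unadjusted p of 0.0151 in limma became 0.514 after adjustment, and the exact permutation p was 0.0857. I-FABP was 1 of 3 target genes (4.41% of 68) with an unadjusted p under 0.05. None of the 68 (0%) passed an adjusted p of 0.05, the 3 members included.

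Tff3, the trefoil peptide, varied least of the members. It was 18073, 14387, 21323 and 19018 in the control pools and 15128, 11387, 19216 and 19869 in the HSD pools, so the diets overlapped over most of their range. The mean was 18200 ± 2885 on the control diet and 16400 ± 3946 on HSD (SD, n = 4 pools each). The log2 fold change was -0.17 (standard error 0.321, 95% confidence interval -0.88 to 0.54; limma adjusted p = 0.912, exact permutation p = 0.514). The interval leaves room for a change of either sign, up to 0.88 lower on the log2 scale. No member separated the diets in full, and 1 of the 68 target genes (1.47%) did.

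**Figure D1:**
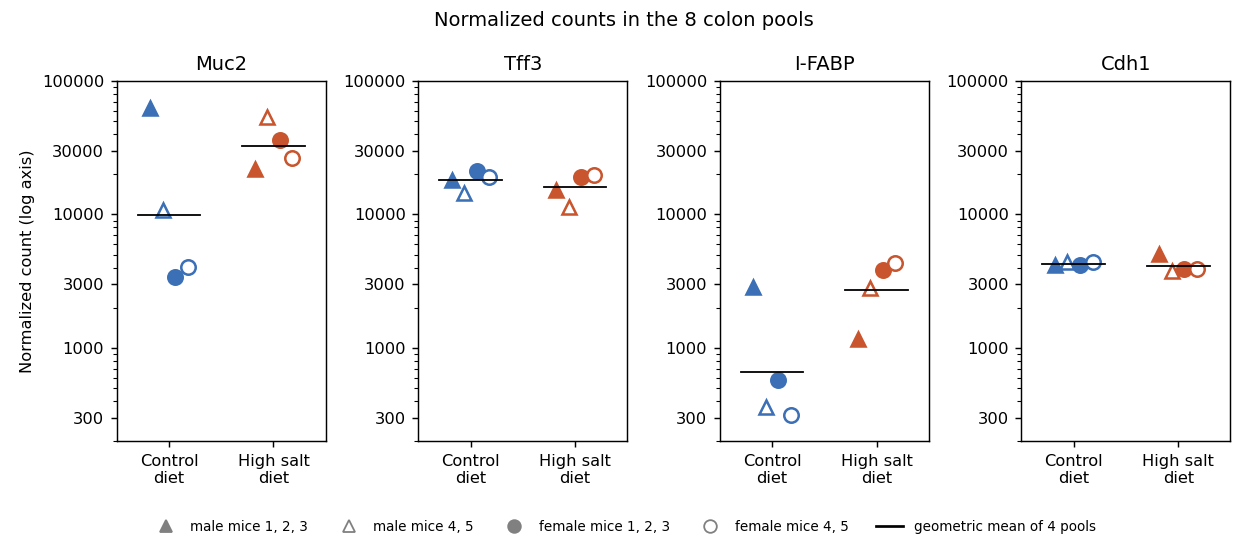
Normalized counts (log axis) of Muc2, Tff3, I-FABP and the epithelial cadherin Cdh1 in 4 control diet pools (blue) and 4 HSD pools (orange), with triangles for male and circles for female pools, filled for mice 1, 2 and 3 and open for mice 4 and 5. The black line is the geometric mean of the 4 pools of a diet; Muc2 runs from 3373 to 62763 and I-FABP from 315.7 to 4297, while Tff3 stays between 11387 and 21323 and Cdh1 between 3800 and 5068.

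Whether Muc2 and I-FABP passed the test turned on the male 1–3 control pool. Without this pool, the log2 fold change was 2.62 for Muc2 and 2.75 for I-FABP, both with a limma adjusted p of 0.0102. Of the 68 target genes, 5 then passed an adjusted p of 0.05, these 2 among them. The others were Reg3g, an antibacterial lectin, Tlr2, a receptor for bacterial lipoproteins, and trpv1, an ion channel of sensory nerves and a weak signal here. Without both male 1–3 pools the log2 fold change was 2.81 for Muc2 (limma adjusted p = 0.0111) and 3.16 for I-FABP (limma adjusted p = 0.00266). In that setting 6 of the 68 target genes passed. Tff3 changed little by the same removals, to -0.17 and -0.14 (limma adjusted p = 0.935 and 0.878). Without the male 1–3 HSD pool alone, the log2 fold change was 1.92 for Muc2 and 2.45 for I-FABP. Neither passed (limma adjusted p = 0.45 and 0.38), and 0 of the 68 target genes did. These pools were singled out after their values were known, so the p-values without them describe how far the result depends on them and are not independent evidence.

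The 3 genes differed widely in how far they moved from pool to pool. Among the 47 target genes above the floor in every pool, Muc2 had the second and I-FABP the third largest SD of log2 values within diets (1.42 and 1.20), and Tff3 was at place 39 (0.312). From lowest to highest pool Muc2 covered 4.22 on the log2 scale, I-FABP 3.76 and Tff3 0.905. Cdh1, the cadherin of all epithelial cells, had the smallest SD of the 47 (0.144, range 0.415), with values of 4206, 4417, 4151 and 4397 in the control and 5068, 3800, 3882 and 3877 in the HSD pools. The summed value of the epithelial genes Cdh1, Ocln, Tjp1 and Cldn1 was 5479 to 5568 on the control diet and 5160 to 6698 on HSD. Most of this sum is Cdh1. Over the 8 pools Tjp1 varied 1.63-fold, Ocln 2.26-fold (515.4 to 1165) and Cldn1, a low signal, 5.35-fold (10.8 to 57.8), where Muc2 varied 18.6-fold.

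**Figure D2:**
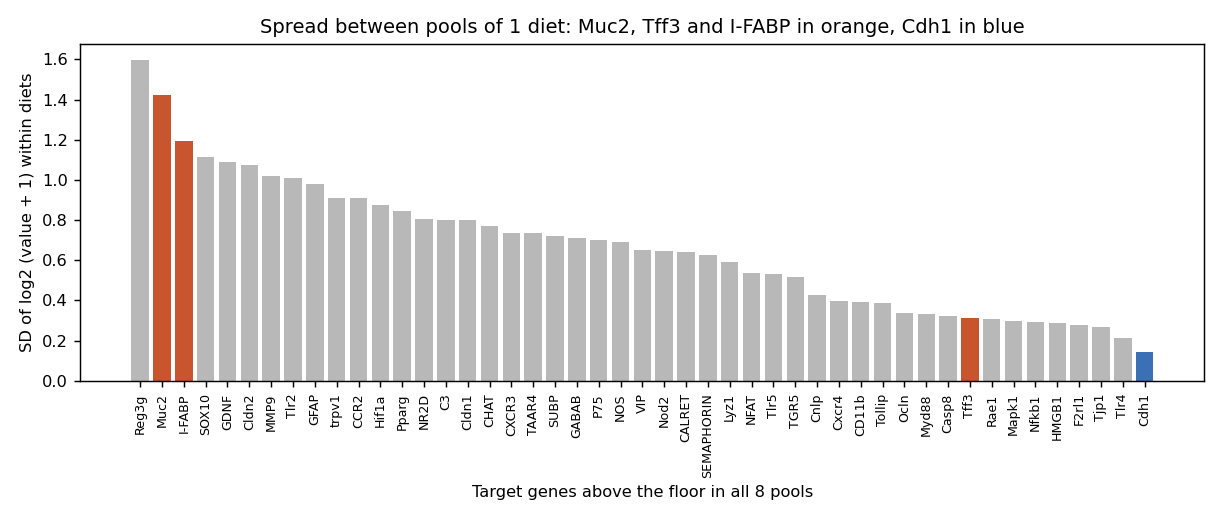
SD of log2 normalized counts within diets (vertical axis, log2 units) for the 47 target genes above the floor in all 8 pools. The genes are sorted by size, with the members and Cdh1 marked. Reg3g (1.60) has the largest SD, followed by Muc2 (1.42) and I-FABP (1.20), with Tff3 (0.312) at place 39 and Cdh1 (0.144) last.

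A ratio of transcripts within a pool does not move with the scaling to the reference genes. Muc2 over Tff3, the balance of the goblet cell products, was 3.47, 0.755, 0.158 and 0.214 in the control pools and 1.45, 4.70, 1.89 and 1.34 in the HSD pools, a 29.7-fold range. In 3 of 4 control pools it was below 1 and below every HSD pool, and in all 4 HSD pools it was above 1. The geometric mean was 0.546 on the control diet and 2.04 on HSD. The log2 difference was 1.90, beside an SD of log2 ratios of 2.03 between control pools and 0.83 between HSD pools. It did not pass the test (two-sided exact permutation p = 0.171, 0.257 adjusted over 3 ratios).

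I-FABP over Tff3 was 0.159, 0.0249, 0.0269 and 0.0166 in the control pools and 0.0777, 0.249, 0.198 and 0.216 in the HSD pools, a range of 3.91 on the log2 scale. The same 3 control pools lay below all HSD pools. The geometric means of 0.0365 and 0.170 differed by 2.22 on the log2 scale, or 4.65-fold (exact permutation p = 0.0571, adjusted 0.171). The smallest p that 4 pools against 4 can give is 0.0286. Without the male 1–3 control pool, 3 pools against 4, both ratios to Tff3 had an exact permutation p of 0.0286, again the smallest possible (0.0429 adjusted). The log2 differences were then 2.79 for Muc2 and 2.93 for I-FABP. The pool left out was the only control pool not below every HSD pool in these ratios. It was singled out after its values were known, so this p is not independent evidence. Without both male 1–3 pools the exact permutation p was 0.1 for both ratios (adjusted 0.15), the smallest that 3 pools against 3 can give.

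I-FABP over Muc2 set the enterocyte product against the mucin. It was 0.0458, 0.0330, 0.170 and 0.0775 in the control pools and 0.0536, 0.0530, 0.105 and 0.161 in the HSD pools. This 5.16-fold range was the narrowest of the 3 ratios, while I-FABP itself varied 13.6-fold and Muc2 18.6-fold. The geometric means were 0.0668 and 0.0832, a log2 difference of 0.32 (exact permutation p = 0.600, adjusted 0.600). All 4 male pools had this ratio at 0.0330 to 0.0536 and all 4 female pools at 0.0775 to 0.170, while the diets overlapped. That split by sex was seen in the values and was not tested. Among single target genes the sexes did not overlap in 7 of 68 (10.3%), and no such share was taken over ratios.

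**Figure D3:**
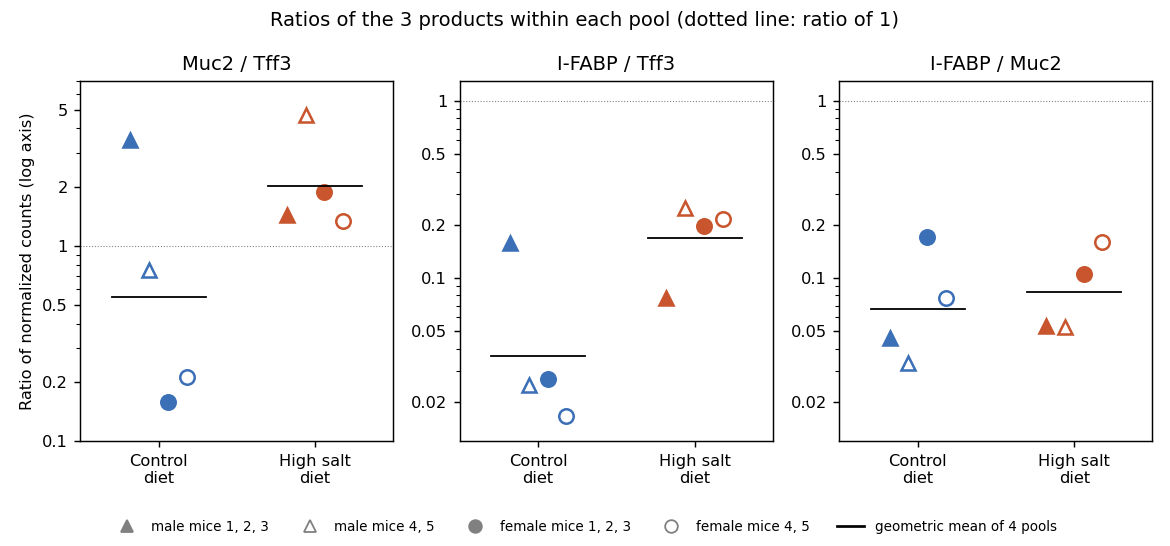
Ratios of normalized counts (log axis) within each pool for Muc2 over Tff3, I-FABP over Tff3 and I-FABP over Muc2, by diet, with symbols for sex and mouse numbers and a line at the geometric mean of 4 pools. In the ratios to Tff3, 3 of 4 control pools lie below all HSD pools and the male 1–3 control pool lies among them. For I-FABP over Muc2 the control pools (0.0330 to 0.170) reach below and above the HSD pools (0.0530 to 0.161).

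Muc2 and I-FABP were high and low in the same pools. The 3 control pools with the lowest Muc2 (3373 to 10865) were the 3 with the lowest I-FABP (315.7 to 574.3), and the other 5 pools ran from 21934 to 62763 in Muc2 and from 1175 to 4297 in I-FABP. Over the 8 pools Pearson's r of log2 values was 0.85 (exact permutation p = 0.0105, adjusted over 3 pairs 0.0314) and Spearman's rho was 0.71 (exact permutation p = 0.0576, adjusted 0.173). Part of this is the split between the 3 and the other 5 pools, so the pooled r is given as a description. Neither set is large enough for a correlation of its own, and the pairings over 8 pools were permuted across diets. Nor was this r the highest of I-FABP, for which Muc2 was at place 4 of the 46 genes compared. With the diet means taken off, r was 0.77 (permutation within diets, p = 0.102), and without the 2 pools farthest from the median of Muc2, both female control pools, it was 0.79 (exact permutation p = 0.0625). Of these values only Pearson's r over all 8 pools had an adjusted p under 0.05.

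No relation of Tff3 with either of them was detected over the 8 pools. Between Muc2 and Tff3, which goblet cells share, Pearson's r was -0.43 (exact permutation p = 0.289, adjusted 0.434) and Spearman's rho -0.38 (exact permutation p = 0.360), and without the 2 pools farthest from the median of Muc2 r was 0.041. Between I-FABP and Tff3 r was -0.039 (exact permutation p = 0.931) and rho 0.24 (exact permutation p = 0.582). The pool with the highest Tff3, female 1–3 on the control diet (21323), was the one with the lowest Muc2 (3373). It was also the pool with the fewest counts (2730 for the reference genes). The next lowest, female 1–3 on HSD (3227), had a Muc2 of 36237. The part of the number of counts in these levels was not tested.

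**Figure D4:**
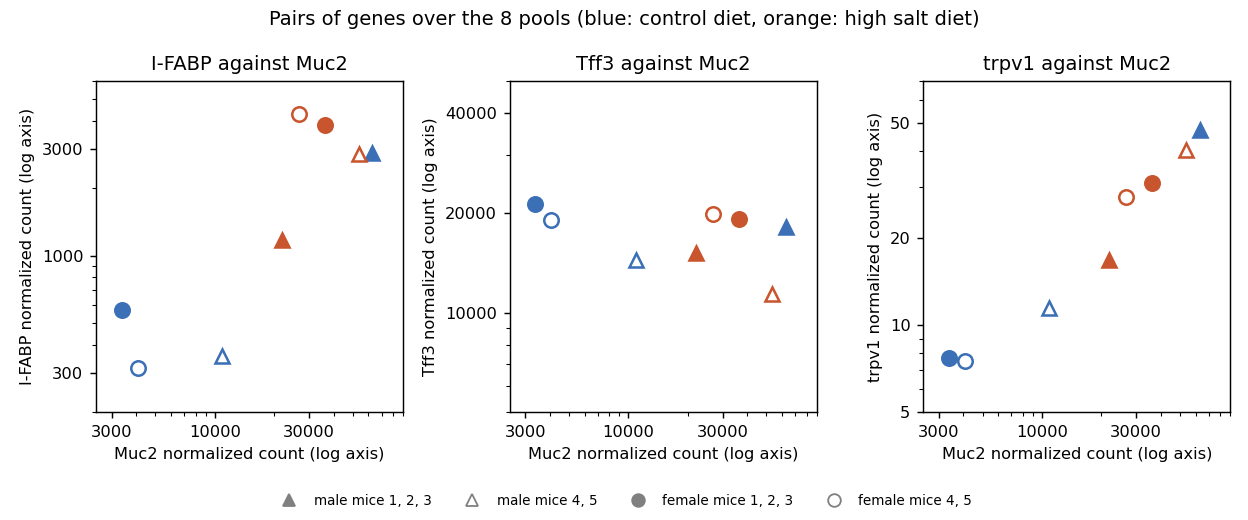
Normalized counts of I-FABP, Tff3 and trpv1 (vertical log axes) against Muc2 (horizontal log axis) in the 8 pools, blue for the control diet and orange for HSD, with symbols for sex and mouse numbers. I-FABP is low in the 3 pools lowest in Muc2 (r = 0.85), Tff3 shows no rise with Muc2 (r = -0.43), and trpv1 rises with Muc2 over the 8 pools (r = 0.98). The trpv1 signal is weak and lies below the highest negative control probe in both female control pools.

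With 2 pools per sex and diet, the members could be set out by both. Muc2 was 3373 to 4074 in female control pools, 10865 to 62763 in male control pools, 21934 to 53516 in male HSD pools and 26688 to 36237 in female HSD pools. I-FABP followed as 315.7 to 574.3, 358.5 to 2873, 1175 to 2835 and 3808 to 4297. The female pools of the diets did not overlap in either gene, as in 27 of the 68 target genes (39.7%), and the male pools overlapped in both, where 24 of the 68 (35.3%) did not. With 2 pools against 2, a lack of overlap is thus common on this panel. The log2 fold change with diet was 3.07 in females and 0.39 in males for Muc2 (standard error 0.814 each), and 3.24 and 0.85 for I-FABP (standard error 0.922 each). The difference between the sexes in this change was -2.68 for Muc2 (unadjusted p = 0.0479, adjusted p = 0.481 in limma) and -2.40 for I-FABP (unadjusted p = 0.102, adjusted p = 0.709 in limma). Of the 68 genes, 8.82% had an unadjusted interaction p under 0.05 and 0% an adjusted one, so it is not shown that the effect differs by sex.

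Tff3 was the member ordered by sex. All 4 female pools (19018 to 21323) were above all 4 male pools (11387 to 18073), on either diet. The difference of males from females was -0.45 on the log2 scale with diet as a covariate (standard error 0.255, limma adjusted p = 0.361), and the exact permutation p within diets was 0.0556, the smallest that 36 assignments allow. The sexes did not overlap in 7 of the 68 target genes (10.3%), Tff3 among them. For Muc2 the difference was 1.48 (standard error 0.723, limma adjusted p = 0.298) and for I-FABP 0.052 (standard error 0.757, limma adjusted p = 0.985). No gene passed an adjusted p of 0.05 between sexes (0%), and 13.2% had an unadjusted p under 0.05.

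The target genes whose levels ran most like each member's were found among the 47 above the floor in all pools, by Pearson's r of log2 values over the 8 pools. They are given as a description, because the 46 other genes share pools and scaling. For Muc2 they were trpv1 (r = 0.98), I-FABP (0.85) and Tlr2 (0.83). For I-FABP they were Tlr2 (0.97), Reg3g (0.94) and trpv1 (0.91). Of these, trpv1 was a weak signal, with 2 and 7 recovered counts in the female control pools, below the highest negative control probe (4 and 10). Tlr2 was 261.7, 32.3, 61.7 and 53.7 in the control pools and 101.1, 229.0, 266.9 and 227.7 in the HSD pools, and Reg3g was 386.8, 29.2, 88.7 and 32.2 and then 72.5, 650.9, 270.0 and 625.0. In both genes male 1–3 was the highest pool on the control diet and the lowest on HSD, as in I-FABP.

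The gene least like both was Hif1a, which switches on genes at low oxygen (r = -0.89 with Muc2 and -0.84 with I-FABP). Hif1a was 268.9, 926.4, 1137 and 796.7 in the control pools and 728.6, 188.5, 288.6 and 417.1 in the HSD pools. Its lowest pools were male 4–5 on HSD and male 1–3 on the control diet, the pair highest in Muc2, and its highest was the pool lowest in Muc2. Tff3 had other neighbours: the chemokine receptor CXCR3 (r = 0.83), the neuropeptide VIP (0.81) and the apoptotic protease Casp8 (0.79), with F2rl1, a protease-activated receptor, at the other end (-0.60). CXCR3 was a weak signal. Its 17 and 15 recovered counts in the male 1–3 and male 4–5 HSD pools lay below the highest negative control probe (18 and 17). Like Tff3, CXCR3, VIP and Casp8 had lower means in males (log2 -0.97, -0.90 and -0.35, limma adjusted p = 0.285, 0.285 and 0.523). None of the nearest 3 of Tff3 was among those of Muc2 or I-FABP.

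Among 10 other epithelial and secreted genes of the panel (Reg3g, Lyz1, Defcr1, Cnlp, Cdh1, Ocln, Tjp1, Cldn1, Cldn2 and F2rl1), the mean log2 value on HSD was higher in 7 and lower in 3, and none passed the test at an adjusted or unadjusted p of 0.05. The median log2 fold change was 0.15, against 0.18 over all 68 target genes, of which 44 were higher. Reg3g was the highest at 1.97 (standard error 0.906, limma adjusted p = 0.628) and the pore-forming claudin Cldn2 the lowest at -0.97 (standard error 0.642, limma adjusted p = 0.784). Cdh1 stood at -0.057 (standard error 0.283, limma adjusted p = 0.942). The log2 fold change of I-FABP (2.04) was above that of every gene of this list, that of Muc2 (1.73) was above all but Reg3g, and that of Tff3 lay within the list.

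I-FABP, Reg3g, Lyz1 and Defcr1 are all typical of small intestine. The summed value of the Paneth cell and small intestine genes Defcr1, Lyz1 and Reg3g ran from 376.2 to 676.1 on the control diet and from 583.4 to 1088 on HSD. Defcr1, the Paneth cell defensin, was at the floor in 7 of 8 pools, and the mean of Lyz1 was 430.4 ± 190 on the control diet and 416.1 ± 119 on HSD (SD, n = 4 pools each). Genes of other cells of the colon wall had summed values of 1544 to 3150 in control and 2552 to 2936 in HSD pools for enteric neurons. The largest part of the neuron sum was CALRET, with a mean of 1591 in control and 1734 in HSD pools. Only 5 to 7 of the 9 neuron genes lay above the floor in a pool. The sums were 43.8 to 146 and 39.7 to 180 for enteric glia, 52.1 to 200.4 and 52.0 to 113 for myeloid cells, and 31.2 to 86.4 and 29.1 to 60.6 for T lymphocytes. Of the 4 T lymphocyte genes, 2 to 4 lay above the floor in a pool, and genes at the floor entered the sums at the floor value. All of these sums overlapped between diets, and their part in the levels of Muc2 and I-FABP was not tested.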

How the data were processed

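RNA was extracted from whole colon with the RNeasy kit, treated with DNase, pooled, and counted on the NanoString nCounter. The deposited signal is a normalized count per gene that the authors made with nSolver 4.0. How background and normalization were set in it is not given in the sources used here. In the values, all pools had the same geometric mean of the 3 reference genes, and 81 low values stood at a floor. The other 487 were whole multiples of what 1 count is worth in their pool, within a tolerance of 0.0051 in the normalized value. This gave the recovered counts, with exact Poisson intervals.

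Pools were mapped to diet, sex and mice by their labels, and no pair of pools held equal values. The 68 target genes were fitted with limma 3.58.1 in R 4.3.3 on log2(value + 1) with diet as factor, and p-values were adjusted by Benjamini-Hochberg over the 68 genes at 0.05. The pseudocount of 1 slightly understates the change of low genes. Sex was tested with diet as covariate, and diet by sex as an interaction. Ratios and correlations had two-sided exact permutation tests over 70 assignments or 40320 pairings in Python 3.11.15 with scipy 1.17.1, without adjustment beyond the 3 of a family. The limma step was tested on simulated data. Genes were named by rule: the members, for each the 3 genes most and the 1 least like it, and the highest, the lowest and Cdh1 of an epithelial list. The members, lists, tests and alternatives were chosen with earlier results of these data known. Alternatives were other scalings, pseudocounts, filters, covariates, weights, the methods' unpaired test, voom on recovered counts, and leaving out pools. No pools share mice, and pools of the same sex and mouse numbers did not all deviate together. I-FABP was matched to Fabp2 as a RefSeq synonym.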

Additional observations from a re-analysis of the deposited data

Results flagged for a closer look

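Each member and ratio was examined for a pool far from the other 3 of its diet, 12 groups of 4 in all, by the gap to the nearest pool as a share of the range. In 4 groups this share was above Dixon's 95% critical value. In the male 1–3 control pool, Muc2 was 62763 (share 0.874), I-FABP was 2873 (share 0.899) and I-FABP over Tff3 was 0.159 (share 0.927). In the male 4–5 HSD pool, Muc2 over Tff3 was 4.70 (share 0.838). Chance alone gives about 1 in 20 groups, or 0.6 of 12, though the 12 are not independent because they share genes. On the log2 scale 0 of the 12 groups passed, so these pools stand out on the linear scale.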

How the results depend on the processing

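No alternative turned the sign of the diet difference of a member. Outside the removal of pools the log2 difference was at least 1.58 for Muc2 and 1.78 for I-FABP, without a call. Leaving out each pool in turn gave 1.22 to 2.62 for Muc2, 1.69 to 2.75 for I-FABP and -0.28 to -0.0063 for Tff3. It gave 0 to 5 of the 68 target genes called. Both members and the 5 genes were called only without the male 1–3 control pool. Without both male 1–3 pools, 6 of the 68 target genes were called, with 2.81 for Muc2 and 3.16 for I-FABP. Pools left out in turn gave 1.31 to 2.79 for the log2 ratio of Muc2 to Tff3, 1.84 to 2.93 for I-FABP to Tff3 and -0.022 to 0.77 for I-FABP to Muc2, -0.79 to 0.55 for the sex difference of I-FABP, and r of 0.79 to 0.89 for Muc2 with I-FABP (past the adjusted threshold in 1 of 8) and -0.24 to 0.29 for I-FABP with Tff3.

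For Muc2 with I-FABP, r was 0.77 after the diet means, 0.71 as Spearman's rho and 0.79 without the 2 farthest pools, none with an adjusted p under 0.05. For Muc2 with Tff3 it turned to 0.027 with pools centred on their medians and 0.041 without the 2 farthest pools. For I-FABP with Tff3 it turned to 0.25 after the diet means and 0.24 as Spearman's rho. The cause was not tested.

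Pools of the same sex and mouse numbers share no mice, and their deviations correlated at -0.52, 0.030, 0.38 and 0.0093. With the replicate block, log2 differences stayed at 1.73, -0.17 and 2.04 (limma adjusted p = 0.765, 0.860 and 0.765), 0 genes were called, and the ratios had exact sign-flip p-values of 0.25, 0.25 and 0.5, where 0.125 is the smallest. The planned quasi-likelihood test on recovered counts was not run, since the floor hides the counts of 21 genes; voom on the other 47, chosen after seeing the data, called 0 genes. With 4 pools per diet, each of 2 or 3 mice, differences of the size of Tff3's could not be resolved.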

Other observations

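The gene most like Muc2 over the pools, trpv1, was a weak signal. Its normalized count was 47.5, 11.5, 7.71 and 7.52 in the control pools (male 1–3, male 4–5, female 1–3, female 4–5) and 16.8, 40.5, 31.0 and 27.9 in the HSD pools. Behind these values were 33, 11, 2 and 7 recovered counts and then 41, 75, 10 and 24. The highest negative control probe of these pools had 8, 7, 4 and 10 counts and then 18, 17, 2 and 7, so trpv1 was below the highest negative control in both female control pools. The normalized count of Muc2 was 1323, 948, 437 and 542 times that of trpv1 in the control pools and 1307, 1321, 1168 and 957 times in the HSD pools. Over the 8 pools this ratio ran from 437 to 1323, and it was lowest in the female control pools, those with the lowest Muc2. In the 3 pools with the highest counts of trpv1 (33, 41 and 75) it lay between 1307 and 1323. No interval for counting error was taken for trpv1, so the closeness of these 3 values is not read. Whether the trpv1 probe counts its own transcript alone was not tested.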
